A study of Mus musculus and Homo sapiens with 16 samples.

Results

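RNA from sorted skin epithelium of mouse embryos at E17.5 was compared between 3 libraries labelled Klf5-/- and 3 labelled Klf5+/-. These 6 libraries, of 16 samples in the series, were chosen by their titles and genotype labels, and all expressed genes were described. All were from C57BL/6 mice. Embryonic epidermis was peeled and dissociated, and cells were sorted for integrin alpha 6, a receptor for the basement membrane, and against DAPI and CD45. By their label the control embryos were heterozygous for Klf5, and no wild-type RNA library was part of the comparison. How the gene was deleted, and which part of it, is not stated in the labels, and nothing in the labels says whether each library came from a separate embryo. The p-values therefore speak only to the variation among these 6 libraries, part of which may be technical.

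KLF5 is a zinc-finger transcription factor of the Kruppel-like family, found in the basal layer of stratified epithelia, that binds GC-rich and CACCC-type sequences. In the epidermis, basal cells marked by the keratins Krt5 and Krt14 divide on the basement membrane. Cells that leave it switch to Krt1 and Krt10, build desmosomes in the spinous layer, and in the granular layer make filaggrin, cross-linked envelope proteins and the lipids that seal the cornified layer. The fetal period sampled here is the one in which the water barrier forms.

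Each library held between 34486898 and 46445546 counts on genes, and levels are given as CPM, read counts scaled by library size and TMM factors, with 0.0647 to 0.0901 CPM for 3 counts. Of 39179 annotated genes, 16025 had no count in any of the 6 libraries and 15092 had enough counts to be tested. In the Klf5+/- libraries 12713 genes had a mean of at least 1 CPM and 2172 of at least 100 CPM. The libraries did not separate cleanly by label: on the first principal component (37.93% of variance) the Klf5+/- libraries lay at -9.32, -21.1 and -15.8 and those labelled Klf5-/- at 18.9, 33.0 and -5.73. The third Klf5-/- library thus lay nearer to the Klf5+/- libraries, and some results that rest on it are given with and without it. On the second component (24.97% of variance) the libraries numbered 3 of both genotypes lay lowest, at -14.8 (Klf5+/-) and -23.0 (Klf5-/-). The others lay from -1.63 to 24.6.

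Klf5 itself did not check the labels. Its levels were 181, 199 and 163 CPM in the Klf5+/- libraries and 197, 177 and 174 CPM in those labelled Klf5-/-. The groups overlapped (log2 fold change 0.02, SE 0.10, edgeR adjusted p = 0.982). Counts over the whole gene cannot show a loss of part of it, so every direction below rests on the genotype labels.

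The sorted cells carried the keratins of both basal and suprabasal cells. Per kilobase of exon, and among genes with at least 200 bases of exon, Krt1 and Krt10 had the highest levels of all genes in the Klf5+/- libraries (14774 and 13039 CPM per kilobase), above Krt5 (6196) and Krt14 (3918). Itga6, which encodes the sorted integrin, lay at 411, 387 and 358 CPM in the Klf5+/- libraries and 405, 411 and 318 CPM in the Klf5-/- libraries. The ranges overlapped (log2 fold change -0.03, SE 0.12, edgeR adjusted p = 0.975). Ptprc, which encodes CD45, was low but not at 0, at 8.46, 4.81 and 11.2 CPM against 6.68, 7.83 and 11.6 CPM. Itga6 was named here because it is the sorting marker, outside the rule for named genes.

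In the libraries labelled Klf5-/-, 8 genes fell and 5 rose among the 15092 tested (edgeR quasi-likelihood test, Benjamini-Hochberg adjusted p under 0.05). That is 0.0861% of tested genes, 0.053% lower and 0.0331% higher. The genes that fell encode enzymes, transporters and channel-family proteins (Mgst2, Cyp2s1, Slc5a1, Slco3a1, Ano7, Atp13a4) and 2 products without a clear role here (Fam25c and 4631405J19Rik). Those that rose were the keratins Krt2 and Krt36, the protease inhibitor Serpina3b and the enzymes Nat8l and Bst1. The levels of all 13 genes did not overlap between genotypes. Such a gap was also found for 8.18% of tested genes in the lower direction and 6.63% in the higher direction.

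Single libraries set the count of 13. Leaving out the third Klf5-/- library gave 513 genes (383 lower, or 2.47% of 15486 tested, and 130 higher, or 0.839%), and all 13 genes were among them. Leaving out the second gave 3. Leaving out the first gave 0, with a lowest adjusted p of 0.104 and 1003 genes at an unadjusted p under 0.05. Leaving out the Klf5+/- libraries in turn gave 5, 3 and 3. DESeq2 called 323 genes lower (1.94% of 16658 tested) and 124 higher (0.744%), all 13 among them. On library totals, 2 were lower and 4 higher. The 13 genes kept their direction in each of 15 alternative settings in which they were tested.

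**Figure D1:**
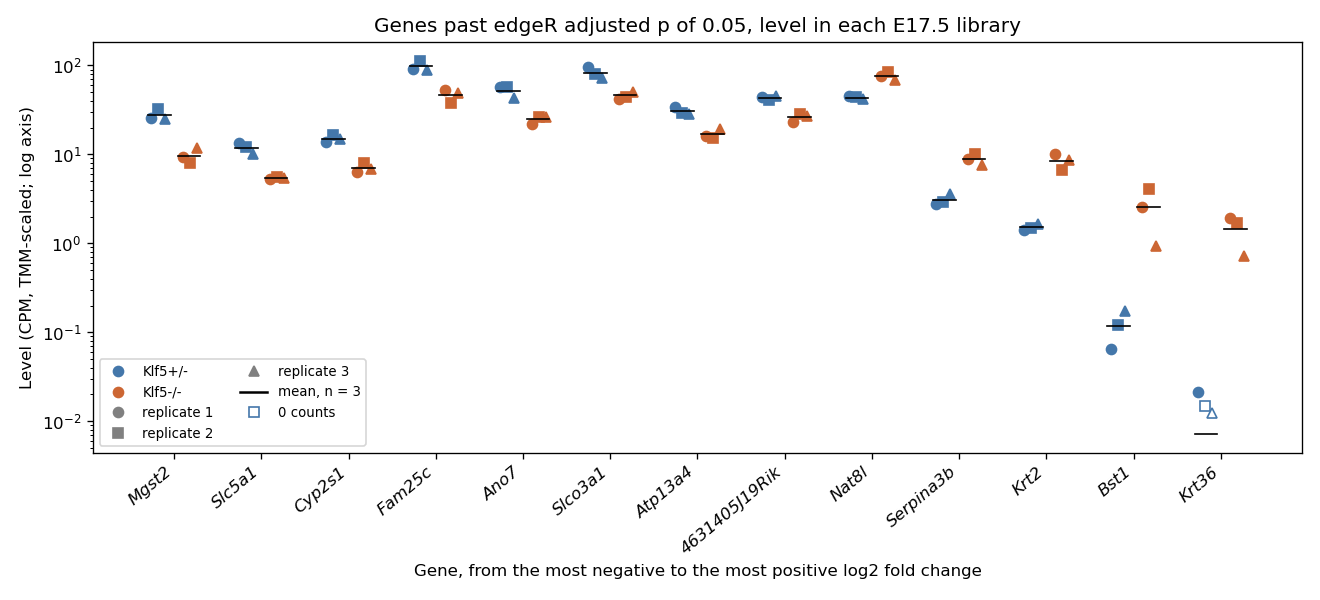
Level of the 13 called genes in each E17.5 library, as TMM-scaled CPM on a log axis. Colours give the genotype, symbols the replicate number, bars the mean of 3 libraries, and open symbols a level of 0 counts drawn at the level of 0.5 count. In none of the 13 genes do the genotypes overlap. Among the genes that rose, the third Klf5-/- library is the lowest of its group for Bst1, Krt36, Serpina3b and Nat8l. For Krt2 the second is.

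Mgst2 (ENSMUSG00000074604, chromosome 3, 51660360 to 51682675, plus strand), a microsomal glutathione transferase, had 25.6, 32.2 and 25.3 CPM in the Klf5+/- libraries. In the Klf5-/- libraries it had 9.30, 8.05 and 11.7 CPM. The highest Klf5-/- library lay below the lowest Klf5+/- library, and the gene fell by 1.51 on the log2 scale (SE 0.16, edgeR adjusted p = 0.0204). Cyp2s1 (chromosome 7, 25802475 to 25816913, minus strand), a cytochrome P450 of epithelia, had 13.6, 16.4 and 14.9 CPM against 6.37, 7.93 and 6.89 CPM. It fell by 1.08 on the log2 scale (SE 0.15, edgeR adjusted p = 0.0408), with the libraries of each genotype close together.

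Slc5a1 (chromosome 5, 33104219 to 33162872, plus strand), the sodium-coupled glucose transporter, had 13.4, 12.0 and 10.2 CPM in the Klf5+/- libraries. The Klf5-/- libraries had 5.34, 5.55 and 5.47 CPM, with almost no spread between them. It fell by 1.12 on the log2 scale (SE 0.16, edgeR adjusted p = 0.0432). Slco3a1 (chromosome 7, 74275419 to 74554780, minus strand), an organic anion transporter, had 96.6, 80.3 and 72.8 CPM against 42.5, 44.5 and 50.9 CPM. The change was -0.86 on the log2 scale (SE 0.12, edgeR adjusted p = 0.0432), and the third Klf5-/- library was the highest of its group. Atp13a4, a P-type ATPase, had 33.9, 29.5 and 28.6 CPM against 15.9, 15.4 and 19.5 CPM, again with the third Klf5-/- library highest in its group (-0.86, SE 0.12, edgeR adjusted p = 0.0469).

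Ano7 (chromosome 1, 93373896 to 93403502, plus strand), of the anoctamin family of channels and lipid scramblases, had 57.1, 56.6 and 42.8 CPM in the Klf5+/- libraries and 22.0, 26.6 and 26.5 CPM in the Klf5-/- libraries. The third Klf5+/- library was the lowest of its group and still above every Klf5-/- library (-1.06, SE 0.13, edgeR adjusted p = 0.0308). Fam25c, a gene of unknown function, had 91.9, 112 and 88.3 CPM against 52.6, 37.7 and 48.7 CPM. It fell by 1.07 on the log2 scale (SE 0.14, edgeR adjusted p = 0.0319), the second Klf5-/- library being lowest. The unnamed gene 4631405J19Rik had 44.3, 40.7 and 44.9 CPM against 23.3, 28.2 and 27.4 CPM (-0.72, SE 0.10, edgeR adjusted p = 0.0469), the smallest of the 13 changes on the log2 scale.

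Among the genes that rose, Krt2 (chromosome 15, 101810689 to 101818169, minus strand), a keratin of the upper epidermis, had 1.42, 1.50 and 1.67 CPM in the Klf5+/- libraries. The Klf5-/- libraries had 10.1, 6.70 and 8.57 CPM, the first being highest. The rise was 2.46 on the log2 scale (SE 0.22, edgeR adjusted p = 0.00779, the lowest of any gene). Without the third Klf5-/- library the value was 2.46 (edgeR adjusted p = 4.86e-04). The hair keratin Krt36 had 1 count in all 3 Klf5+/- libraries together and 164 in the Klf5-/- libraries. This is a ratio of 174, with a 95% counting interval of 30.8 to 6920, and 1.93, 1.69 and 0.721 CPM by library (edgeR adjusted p = 0.0308). The counting interval, exact and conditional on the total, covers counting error only.

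Serpina3b (chromosome 12, 104127996 to 104139545, plus strand), a serine protease inhibitor, had 2.74, 2.91 and 3.58 CPM against 8.84, 9.99 and 7.64 CPM. It rose by 1.52 on the log2 scale (SE 0.19, edgeR adjusted p = 0.0308), with the second Klf5-/- library highest. Nat8l (chromosome 5, 33995984 to 34005916, plus strand), the enzyme that makes N-acetylaspartate, had 44.9, 43.8 and 41.5 CPM against 76.4, 84.4 and 67.8 CPM. The Klf5+/- libraries lay close together and the rise was 0.81 (SE 0.10, edgeR adjusted p = 0.0308). Bst1, a surface enzyme that cleaves NAD, had 14 counts in the Klf5+/- libraries and 292 in the Klf5-/- libraries, a ratio of 22.1 with a 95% counting interval of 13.0 to 41.0. By library its levels were 0.0647, 0.120 and 0.172 CPM and 2.53, 4.12 and 0.934 CPM, highest in the second Klf5-/- library (edgeR adjusted p = 0.0469).

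**Figure D2:**
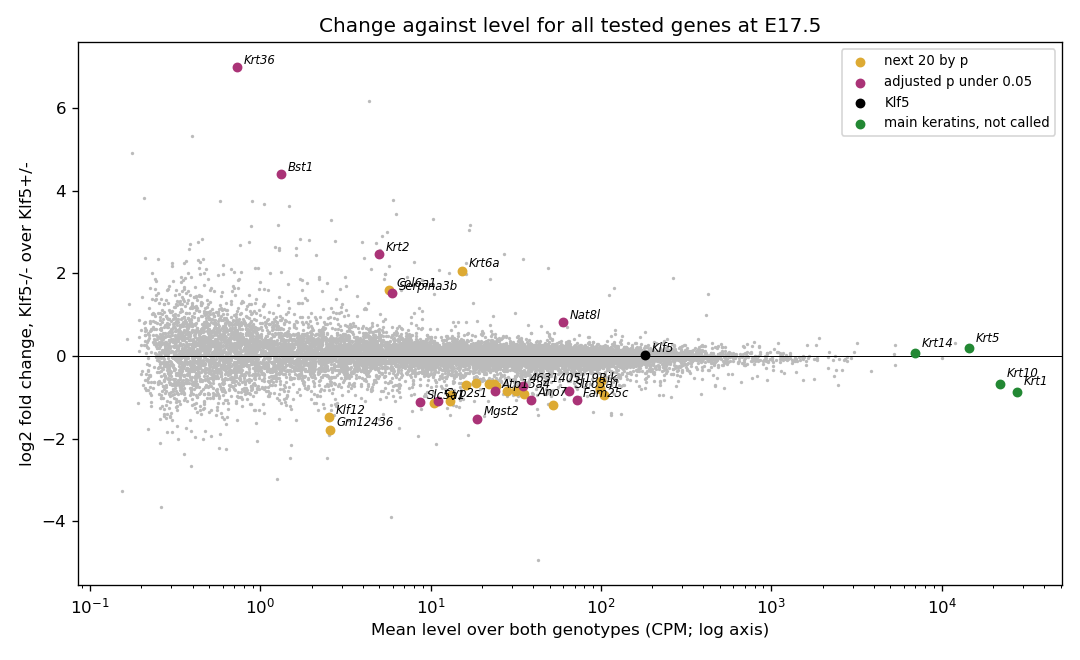
Log2 fold change (Klf5-/- over Klf5+/-) against the mean level over both genotypes in CPM on a log axis, for the 15092 tested genes at E17.5. Purple marks the 13 called genes, yellow the next 20 by p, green the 4 main keratins and black Klf5, which lies at 0.02; Krt1 and Krt10 lie at -0.87 and -0.67 at the far right.

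The 20 genes next in order of p had edgeR adjusted p from 0.0513 to 0.0783 and did not pass. In 18 of them the Klf5-/- mean was lower. They include a pair of acylceramide enzymes: Sdr9c7, a dehydrogenase of the linoleate moiety (28.1, 31.5 and 27.7 against 17.0, 18.8 and 18.6 CPM), and Cyp4f39, the omega-hydroxylase of ultra-long fatty acids (45.2, 47.5 and 45.7 against 20.8, 21.9 and 30.9 CPM). The neighbouring kallikrein proteases Klk10 (32.1, 29.3 and 28.5 against 18.0, 20.3 and 16.4 CPM) and Klk11 (36.6, 38.5 and 34.2 against 16.0, 20.8 and 23.5 CPM) were both below every Klf5+/- library. Ptgs1, a cyclooxygenase, had 135, 128 and 111 against 65.4, 66.0 and 86.8 CPM, and Pla2g4f, a phospholipase of the cytosolic class, had 125, 125 and 111 against 71.7, 76.2 and 87.5 CPM. In none of these 6 genes did the genotypes overlap.

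Cgn, a tight junction plaque protein, was also among the 20 (log2 fold change -0.68, edgeR adjusted p = 0.0566). Chst3, a chondroitin sulfotransferase, had -0.94 (edgeR adjusted p = 0.0557) and Aox4, an aldehyde oxidase, -0.79 (edgeR adjusted p = 0.0566). Klf12, a transcriptional repressor of the same family as KLF5, had 3.69, 4.21 and 3.36 against 1.19, 1.67 and 1.15 CPM (-1.48, edgeR adjusted p = 0.0783). It lies near the targeted Klf5 on chromosome 14 (99874486 to 100149764 against 99298691 to 99313405). The part of this nearness was not tested. Ccdc92, Gm12436, Ttc39b, Zfp185, Gm9769, Clec2g and Phyhip were also lower, with values of -1.13, -1.78, -1.08, -0.94, -0.84, -0.66 and -1.19 in that order. The higher pair was Krt6a, a wound and periderm keratin (5.14, 4.69 and 7.98 against 25.4, 32.6 and 16.4 CPM), and Col6a1, a fibroblast collagen (2.87, 3.46 and 2.23 against 9.69, 10.2 and 5.90 CPM). DESeq2 called all 20.

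The epidermal gene groups are described by counts of members and by their median log2 fold change. Over all tested genes the median was 0.01, with 7946 above 0 and 7146 below, and 941 lower and 571 higher at an unadjusted p under 0.05. Levels did not overlap between genotypes for 8.18% of all tested genes in the lower direction and 6.63% in the higher. Within the lists, counts by edgeR were small, so those by DESeq2 stand beside them. Over all genes DESeq2 tested, it called 1.94% lower and 0.744% higher. The list counts below are to be read against these shares. For some lists those by edgeR without the third Klf5-/- library are added. In these bulk libraries fewer cells of a type and less RNA per cell cannot be told apart.

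Spinous layer genes were mostly lower in the Klf5-/- libraries. Of 20 tested, 17 had values below 0 with a median of -0.46, and in 13 every Klf5-/- library lay below every Klf5+/- library. edgeR called none (15 lower and 2 higher at an unadjusted p under 0.05), and DESeq2 called 11 lower and 2 higher. Without the third Klf5-/- library the median was -0.56 and edgeR called 11 lower and 1 higher. Krt1, the main suprabasal type II keratin, had 37015, 39772 and 31182 CPM against 18037, 15272 and 25671 CPM. No library overlapped, and the third Klf5-/- library lay between the others of its label and the Klf5+/- libraries (-0.87, SE 0.19, edgeR adjusted p = 0.119, DESeq2 adjusted p = 3.96e-05). Krt10, its type I partner, had 26972, 30482 and 24144 CPM against 16378, 13643 and 21355 CPM in the same order (-0.67, SE 0.17, edgeR adjusted p = 0.163). Sbsn, a secreted suprabasal protein, had 486, 496 and 421 against 308, 299 and 341 CPM (edgeR adjusted p = 0.0783).

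The basal keratins did not share this pattern. Krt5 had 14126, 14500.4 and 11911 CPM against 17124, 15697 and 13217 CPM and Krt14 had 7466, 6823 and 6269 CPM against 7293, 6669.9 and 7579 CPM, and in both the genotypes overlapped (edgeR adjusted p = 0.781 and 0.932). Summed counts of Krt1 and Krt10 over those of Krt5 and Krt14 gave ratios of 2.96, 3.29 and 3.04 in the Klf5+/- libraries (3.10 ± 0.173, SD, n = 3). The Klf5-/- libraries had 1.41, 1.29 and 2.26 (1.66 ± 0.529). The ranges did not overlap, and the exact two-sided permutation test gave p = 0.1, the smallest that 3 against 3 libraries allow. This ratio was chosen after the values were seen. Of 30 basal and hemidesmosome genes tested, edgeR called none (0 lower and 4 higher at an unadjusted p under 0.05) and DESeq2 called 2 higher, Igfbp3 (17.0, 17.0 and 16.4 against 34.0, 28.4 and 22.1 CPM) and Igfbp2 (100.4, 113 and 121 against 167, 177 and 121 CPM), which bind insulin-like growth factors. The list median was 0.15.

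**Figure D3:**
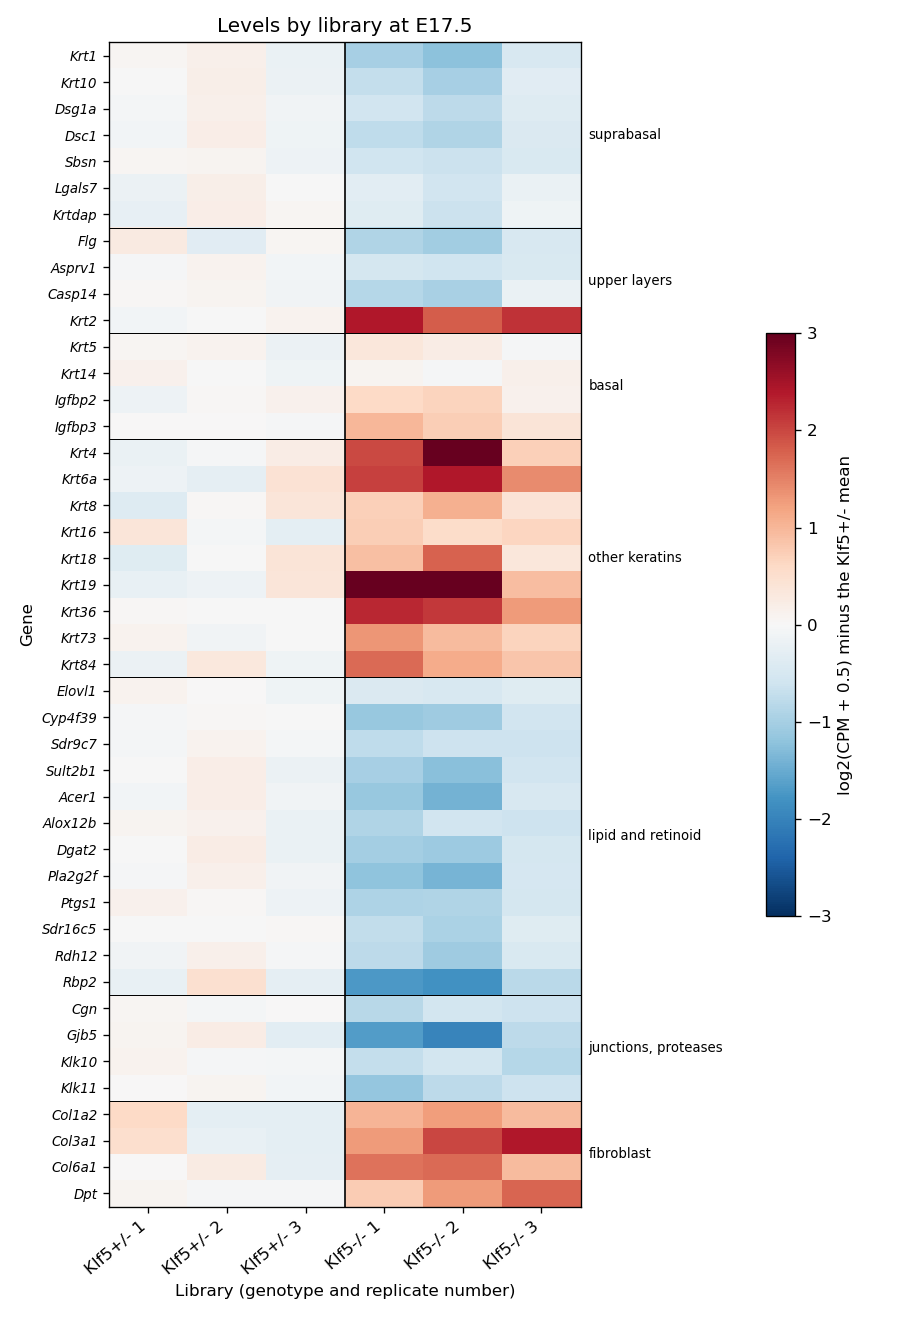
Levels of selected genes in each E17.5 library, as log2(CPM + 0.5) minus the mean of the 3 Klf5+/- libraries, blue for lower and red for higher. Columns are libraries by genotype and replicate number. For Krt1, Krt10, Dsc1, Acer1 and Gjb5 the third Klf5-/- column is paler than the first and second, and the basal keratins Krt5 and Krt14 stay near 0.

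Across the keratin family, 34 of 51 genes were tested. The members edgeR called were Krt2 and Krt36, both higher, while DESeq2 called 13 higher and 2 lower, the latter Krt1 and Krt10. Leaving out the third Klf5-/- library, edgeR called 11 higher and 2 lower. The median was 0.26. Several of the higher keratins belong to periderm, simple epithelia or mucosa. For Krt4, Krt8, Krt18 and Krt19 the highest level was in the second Klf5-/- library. Krt19 had 1.51, 1.62 and 2.53 CPM against 18.7, 33.2 and 3.95 CPM (3.30, SE 0.84, edgeR adjusted p = 0.263, DESeq2 adjusted p = 0.00452). Krt4 had 1.21, 1.41 and 1.77 CPM against 7.22, 16.1 and 2.70 CPM (edgeR adjusted p = 0.179, DESeq2 adjusted p = 0.0175). In both the third Klf5-/- library was close to the Klf5+/- range. Krt8 (20.8, 27.8 and 35.1 against 45.1, 58.0 and 36.3 CPM) and its partner Krt18 (3.84, 5.11 and 6.83 against 10.1, 18.7 and 6.62 CPM) had edgeR adjusted p of 0.256 and 0.321. For Krt18 the genotypes overlapped. Krt16, a stress keratin, had 119, 89.0 and 75.6 against 154, 137 and 146 CPM (edgeR adjusted p = 0.15), and here the 3 Klf5-/- libraries were alike. Among follicle keratins Krt73, of the inner root sheath, had 2.78, 2.34 and 2.50 against 7.11, 5.35 and 4.35 CPM (edgeR adjusted p = 0.0996) and Krt84, of the hair and tongue, had 0.237, 0.541 and 0.270 against 2.22, 1.30 and 0.988 CPM (edgeR adjusted p = 0.128). Krt6a has a near-identical copy, Krt6b, which may share its reads.

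The granular and cornified envelope list was mixed. Of 37 tested, 21 had values above 0 and 16 below, with a median of 0.42. edgeR called Krt2 higher (7 higher and 11 lower at an unadjusted p under 0.05), and DESeq2 called 8 lower and 5 higher. Leaving out the third Klf5-/- library, edgeR called 4 higher and 7 lower. Flg, Casp14 and Asprv1, given next, are among the lower members, and higher members other than Krt2 are not named here. Flg, which encodes filaggrin, had 262, 172 and 226 CPM against 115, 105 and 156 CPM (-0.81, SE 0.19, edgeR adjusted p = 0.142, DESeq2 adjusted p = 2.37e-04). Casp14, the protease that helps process it, had 276, 285 and 250.4 against 149, 137 and 235 CPM (-0.64, edgeR adjusted p = 0.252). Asprv1, another profilaggrin protease, had 552, 608 and 538 against 394, 371 and 409 CPM (-0.53, edgeR adjusted p = 0.0783). In these 3 genes the genotypes did not overlap. Lor, which encodes loricrin, did overlap, at 1185, 1006 and 669 against 948, 946 and 609 CPM (edgeR adjusted p = 0.892). Among the 10 small proline-rich envelope genes tested, edgeR called none (3 higher and 1 lower at an unadjusted p under 0.05) and DESeq2 called Sprr1a (4.64, 6.31 and 5.97 against 27.7, 44.0 and 8.68 CPM) and Sprr2k higher. Lce1 and Sprr2 genes have near-identical neighbours that may share reads.

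Most genes for the barrier lipids had values below 0. Of 23 tested genes that make acylceramides and very long chain fatty acids, 21 did so, the median was -0.38, and 15 did not overlap in the lower direction. edgeR called none (18 lower and 2 higher at an unadjusted p under 0.05), DESeq2 called 10 lower, and without the third Klf5-/- library edgeR called 13 lower. Alox12b, a lipoxygenase that oxidises the linoleate of acylceramide, had 42.7, 43.7 and 34.8 against 21.3, 26.9 and 26.2 CPM (edgeR adjusted p = 0.0783). Elovl1, a fatty acid elongase, had 164, 155 and 140.5 against 113, 109 and 118 CPM (edgeR adjusted p = 0.0868). For both, every Klf5-/- library was below every Klf5+/- library. The wider sphingolipid list of 41 genes had a median of -0.07, with DESeq2 calling 4 lower and edgeR none (10 lower and 2 higher at an unadjusted p under 0.05). Acer1, an alkaline ceramidase, had 102, 125 and 101 against 49.3, 40.7 and 77.7 CPM (-0.97, SE 0.23, edgeR adjusted p = 0.167). Dgat2, of triglyceride synthesis, had 147, 172 and 129 against 72.8, 69.5 and 102 CPM (edgeR adjusted p = 0.0868) and Sult2b1, a cholesterol sulfotransferase, 82.1, 94.8 and 73.8 against 41.2, 34.7 and 55.6 CPM (edgeR adjusted p = 0.0868). Sebaceous gland markers summed to 302, 233 and 210.4 CPM in the Klf5+/- libraries and 157, 149 and 206 CPM in the Klf5-/- libraries, without overlap. Of 10 tested, edgeR called none (2 lower and 0 higher at an unadjusted p under 0.05) and DESeq2 called 1 lower, with a median of -0.09. The part of these cells in the lipid results was not tested.

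Among 25 genes of lipoxygenase, prostaglandin and leukotriene metabolism, edgeR called Mgst2 lower and DESeq2 called 4 lower. The list median was -0.06, and on library totals it was above 0. Pla2g2f, a secreted phospholipase of the skin, had 337, 378 and 316 against 148, 129.9 and 242 CPM (-0.99, SE 0.22, edgeR adjusted p = 0.142, DESeq2 adjusted p = 2.18e-05). Of 21 retinoid genes tested, 18 had values below 0 (median -0.19), edgeR called none (7 lower and 1 higher at an unadjusted p under 0.05) and DESeq2 called 6 lower. They include the retinol and retinal oxidoreductases Sdr16c5 (98.7, 98.9 and 101 against 59.6, 51.6 and 76.9 CPM) and Rdh12 (92.3, 111 and 96.6 against 58.0, 47.1 and 73.0 CPM). Rbp2, a cellular retinol-binding protein, had 51.9, 84.1 and 50.3 against 17.9, 16.8 and 34.4 CPM (edgeR adjusted p = 0.201). In each the third Klf5-/- library was the highest of its group and below the Klf5+/- range.

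Junction and protease genes were mostly below 0. Of 16 desmosome genes, edgeR called none (8 lower and 2 higher at an unadjusted p under 0.05) and DESeq2 called 4 lower and 1 higher, with a median of -0.28. The suprabasal cadherin Dsc1 had 545, 659.5 and 529.7 against 342, 306 and 424 CPM (edgeR adjusted p = 0.0868), and Dsc2, the member DESeq2 called higher, had 10.4, 10.6 and 10.8 against 17.0, 19.9 and 15.2 CPM (edgeR adjusted p = 0.0868). Of 30 tight and gap junction genes (median -0.11), edgeR called none (6 lower and 1 higher at an unadjusted p under 0.05) and DESeq2 called 5 lower. Among these is the epidermal connexin Gjb5 (31.7, 35.0 and 23.8 against 8.95, 7.14 and 17.0 CPM). Of 39 proteases and inhibitors of the cornified layer, 30 had values below 0 (median -0.33). edgeR called Serpina3b higher, and DESeq2 called 9 lower and 2 higher. Leaving out the third Klf5-/- library, edgeR called 15 lower and 2 higher.

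Of 28 genes of glucose transport and glycolysis, 23 had values below 0 (median -0.19). edgeR called Slc5a1 lower and DESeq2 called 3 lower, among them Hk1, a hexokinase (49.6, 52.4 and 38.5 against 23.7, 29.6 and 34.0 CPM, edgeR adjusted p = 0.119). Among 12 genes of NAD and N-acetylaspartate metabolism, edgeR called Nat8l and Bst1 higher and none lower. Over all tested genes it called 0.0331% higher. This list joins both kinds of metabolism and was chosen with earlier results known, so its count is not evidence about either. Of 249 solute carriers, edgeR called Slc5a1 and Slco3a1 lower, and the median was 0.03. Of 81 ion channels, pumps and calcium sensors, Ano7 and Atp13a4 fell and DESeq2 called 7 lower. Ano1, a calcium-gated chloride channel of the same family as Ano7, had 58.6, 61.0 and 52.4 against 30.7, 32.5 and 43.4 CPM (edgeR adjusted p = 0.0868). Of 26 P450 genes, Cyp2s1 fell and DESeq2 called 4 lower, among them Cyp2f2 (2.70, 1.50 and 2.46 against 0.0284, 0.221 and 0.587 CPM, edgeR adjusted p = 0.128).

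Of the 11 Skint genes, surface proteins of the fetal epidermis, 9 had values below 0 with a median of -0.76. edgeR called none (8 lower and 0 higher at an unadjusted p under 0.05) and DESeq2 called 4 lower. Without the third Klf5-/- library edgeR called 8 lower. Skint4 had 34.4, 44.9 and 45.7 CPM against 22.1, 15.0 and 31.0 CPM (edgeR adjusted p = 0.235) and Skint9 had 31.9, 22.3 and 23.8 CPM against 4.38, 2.26 and 14.1 CPM (edgeR adjusted p = 0.467). In both genes the third Klf5-/- library was the highest of its group. Skint genes resemble each other in sequence and may share reads. Of 17 genes of the interleukin-1 family and alarmins, 12 had values above 0 (median 0.18), edgeR called none (2 lower and 2 higher at an unadjusted p under 0.05), and DESeq2 called 2 lower and 1 higher. The higher one was Il1r2, the decoy receptor (0.108, 0.661 and 0.516 against 2.76, 5.20 and 0.988 CPM, edgeR adjusted p = 0.18, DESeq2 adjusted p = 3.20e-04). The receptor antagonists Il1rn (43.9, 48.1 and 37.4 against 21.2, 15.2 and 30.3 CPM) and Il1f5 (88.7, 95.8 and 84.9 against 53.4, 41.3 and 64.6 CPM) had edgeR adjusted p of 0.159 and 0.0868, and both were called lower by DESeq2.

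Among regulators, few members passed in the fits of all 6 libraries. Of 53 epidermal transcription factors, edgeR called none (10 lower and 4 higher at an unadjusted p under 0.05) and DESeq2 called 2 lower. Their median was -0.06, and it was above 0 on library totals. For this list, edgeR without the third Klf5-/- library called 8 lower and 0 higher. Of 21 KLF and SP factors, edgeR called none (3 lower and 0 higher at an unadjusted p under 0.05) and DESeq2 called Klf12 and Klf3 (90.3, 84.9 and 75.2 against 61.2, 61.8 and 57.2 CPM) lower. Of 60 cell cycle and replication genes, 55 had values above 0 with a median of 0.19. edgeR called none (16 higher and 2 lower at an unadjusted p under 0.05). The genes DESeq2 called in that list were the cyclin-dependent kinase inhibitors Cdkn1c, higher (27.4, 34.5 and 32.6 against 47.7, 48.8 and 43.1 CPM), and Cdkn1a, lower (178, 190.1 and 165 against 104, 99.1 and 152 CPM). Neither overlapped between genotypes.

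**Figure D4:**
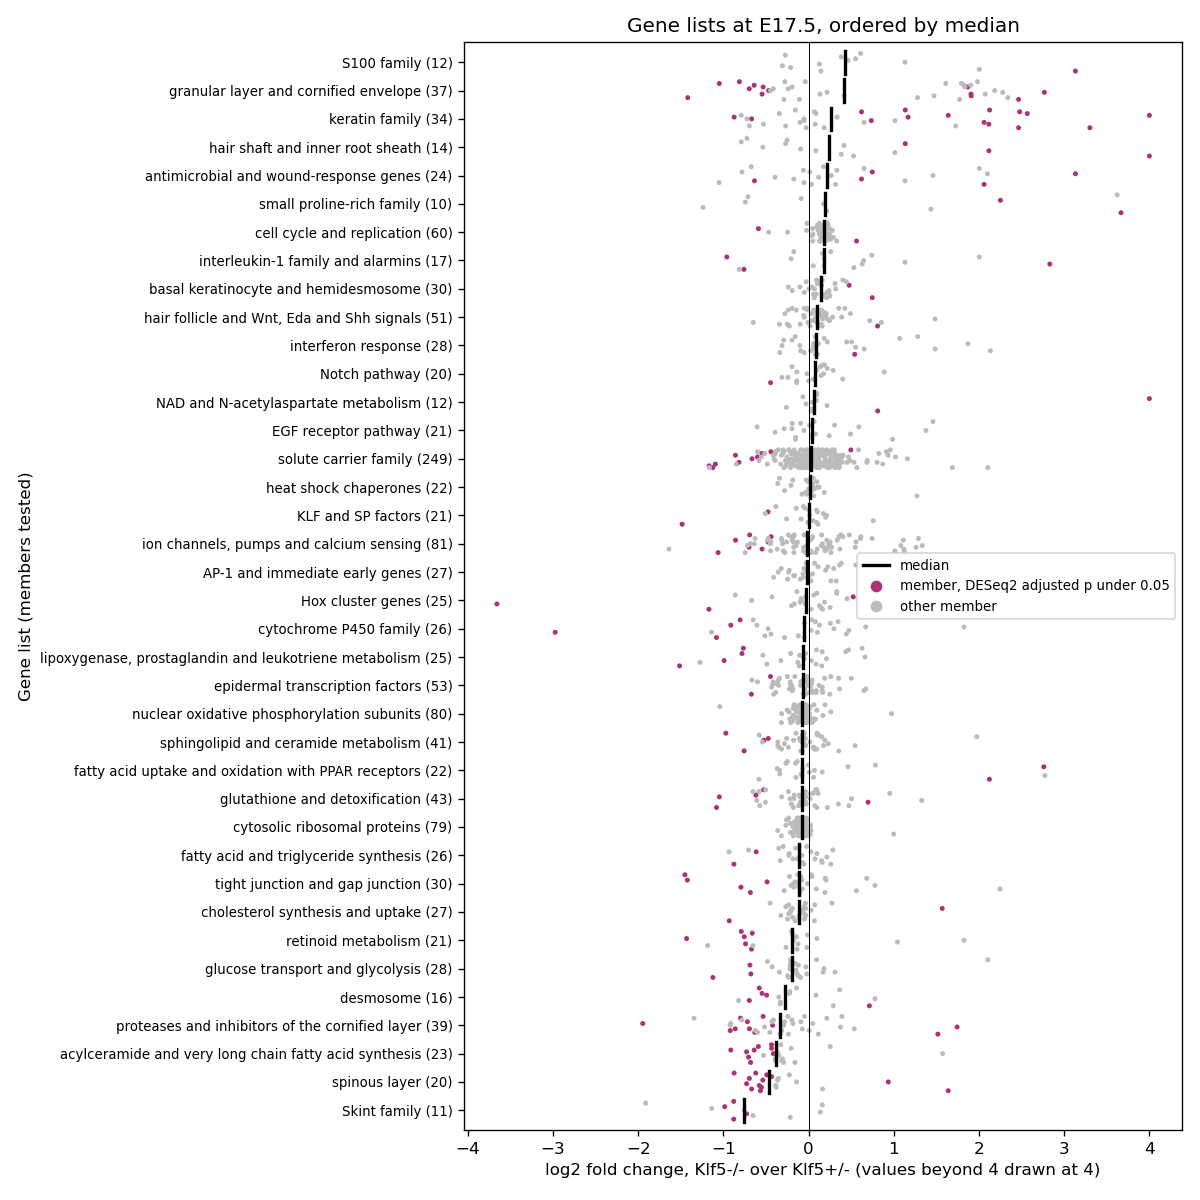
Log2 fold change (Klf5-/- over Klf5+/-) of every tested member of 38 gene lists, with the median as a black bar, ordered by median and with the number tested in brackets. Members DESeq2 called are purple. The Skint and spinous layer lists have the lowest medians, at -0.76 and -0.46.

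Markers of other cell types were read in each library, and some moved with the label. Fibroblast markers summed to 2651, 2579 and 2773 CPM in the Klf5+/- libraries and 2859, 3066 and 2864 CPM in the Klf5-/- libraries, without overlap. Of 21 tested, edgeR called none (10 higher and 0 lower at an unadjusted p under 0.05) and DESeq2 called 7 higher. Col3a1 had 9.08, 5.32 and 5.06 against 15.8, 26.5 and 35.5 CPM (edgeR adjusted p = 0.0945), and the third Klf5-/- library was the farthest from the Klf5+/- range, whereas for Krt1 and Krt10 it was the nearest. Col1a2 had 30.0, 15.9 and 15.8 against 40.1, 47.8 and 38.6 CPM (edgeR adjusted p = 0.167). These collagens were a small part of the fibroblast sum, which more abundant members set. Sparc, 1 of these, had 246, 242 and 243 against 299, 317 and 257 CPM. The sum is therefore no measure of the collagens or of fibroblast content. Endothelial markers summed to 8.44, 8.35 and 9.38 against 11.7, 13.8 and 13.9 CPM, also without overlap. The part of these cells in the results on Col6a1 and Bst1 was not tested.

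Erythroid markers, led by haemoglobin genes, summed to 16.2, 94.9 and 1125 CPM in the Klf5+/- libraries and 268, 753 and 2739 CPM in the Klf5-/- libraries. They spread widely within each genotype and were highest in the library numbered 3 of each. Adipocyte markers summed to 9.58, 7.87 and 10.9 against 12.0, 67.9 and 19.5 CPM, without overlap, and the second Klf5-/- library stood out. That library was also the highest for Krt19 and Krt4. Cd36, a fatty acid carrier of adipocytes and endothelium, had 0.841, 0.451 and 1.72 against 6.45, 11.2 and 2.94 CPM (edgeR adjusted p = 0.138). Melanocyte markers, again without overlap, summed to 509, 473 and 474 against 561, 524 and 547 CPM. Immune markers summed to 68.4, 53.6 and 95.8 against 61.9, 82.3 and 96.5 CPM and Schwann cell markers to 251, 235 and 221 against 219, 254 and 196 CPM. Periderm markers summed to 4183, 4465 and 3775 against 3889, 3689 and 3950.2 CPM, with DESeq2 calling 5 of 11 higher. Their part in the results was not tested.

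**Figure D5:**
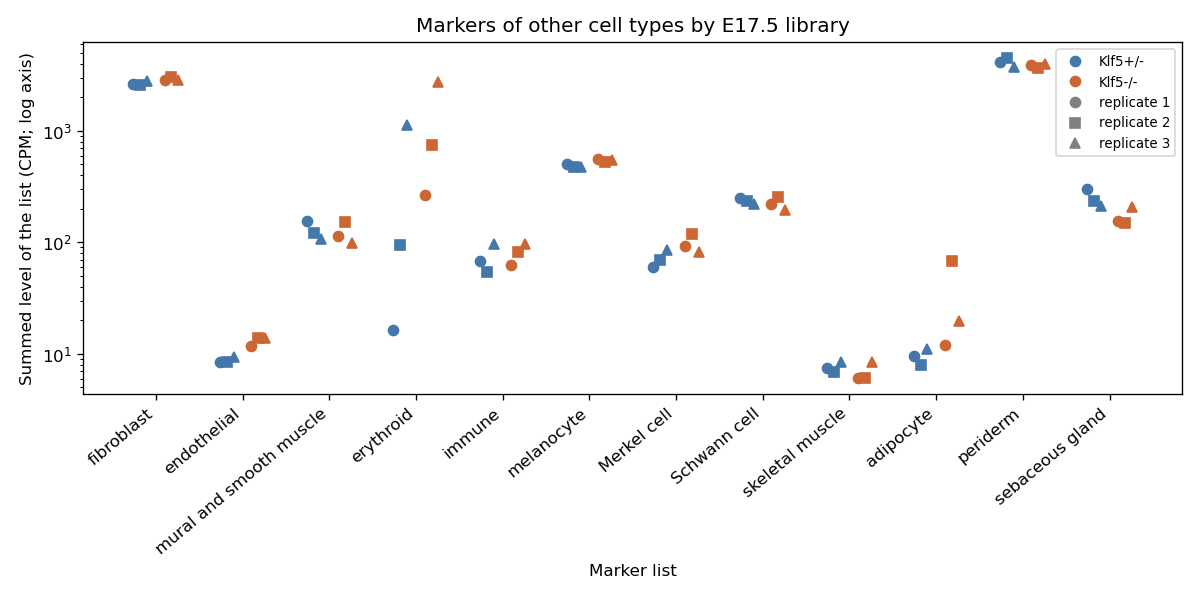
Summed level in CPM on a log axis of 12 lists of markers of other cell types in each E17.5 library, with colours for genotype and symbols for replicate number. Fibroblast, endothelial, melanocyte and adipocyte sums are higher in every Klf5-/- library and the sebaceous sum is lower in each, and erythroid sums spread from 16.2 to 2739 CPM.

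KLF5 binding was read from the authors' peak list of wild-type sorted E17.5 epithelium, 1 list with 6472 peaks on mm10. None of the 8 genes that fell and none of the 5 that rose had a KLF5 peak within 1 kb of the gene start, or within 5 kb. Among all genes tested, 18.9% had one within 1 kb and 22.9% within 5 kb. By level in the Klf5+/- libraries, the share ran from 6.31% of genes under 1 CPM to 34.2% at 100 CPM or more. The nearest KLF5 summit to a called gene lay 7.95 kb from the start of 4631405J19Rik and 8.31 kb from that of Fam25c, and the farthest 195 kb from that of Atp13a4. The ATAC sample of sorted E17.5 epithelium is wild type by its genotype label and carries Het in its title, and the H3K27ac sample is wild type. An ATAC peak, a mark of open chromatin, lay within 1 kb of all 8 genes that fell and of 1 that rose (Nat8l), against 77.4% of tested genes. An H3K27ac peak, a mark of active elements, lay at 2 of those that fell (Mgst2 and Fam25c) and at none that rose, against 57.7%.

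For the larger sets, 14.2% of 323 genes DESeq2 called lower and 4.46% of the 112 it called higher that edgeR also tested had a KLF5 peak within 1 kb. Within 5 kb the shares were 23.2% and 6.25%, against 22.9% of all genes tested. At 100 CPM or more, the share within 1 kb was 24.2% of 91 genes called lower against 34.2% of all. Within 5 kb it was 36.3% against 39.6%. At 10 to 100 CPM, the share within 1 kb was 12.0% of 191 genes called lower against 22.9% of all. Within 5 kb it was 20.9% against 26.2%. At 1 to 10 CPM, the share within 1 kb was 2.56% of 39 genes called lower against 9.53% of all. These are descriptions of 1 peak list each, with no test. Of the 20 genes next in order of p, Klk10 alone had a KLF5 peak at its start (chr7:43780338-43781502, 5.56-fold over background in the authors' list), and Phyhip and Ptgs1 had one within 5 kb. Klf5 itself had a KLF5 peak at its start, with the summit 121 bases away and a 3.78-fold enrichment in the authors' list.

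Promoter sequence is shown for Klk10, whose start lies in a KLF5 peak, and for 3 called genes whose promoters had none. Each is the 250 bases before the start in RefSeq (GRCm38.p6, the mm10 assembly), 5′ to 3′ on the gene's strand. Capitals mark matches to CCNCNCCC or, on the other strand, GGGNGNGG, a CACCC-type pattern in which neighbouring matches may overlap. 
Klk10 (chr7:43780804-43781053, plus strand): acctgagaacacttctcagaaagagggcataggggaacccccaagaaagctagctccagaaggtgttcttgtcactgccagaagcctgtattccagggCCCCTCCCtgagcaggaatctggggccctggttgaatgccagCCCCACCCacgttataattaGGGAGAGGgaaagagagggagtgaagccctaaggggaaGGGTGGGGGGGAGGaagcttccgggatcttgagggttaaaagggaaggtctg
Ano7 (chr1:93373646-93373895, plus strand): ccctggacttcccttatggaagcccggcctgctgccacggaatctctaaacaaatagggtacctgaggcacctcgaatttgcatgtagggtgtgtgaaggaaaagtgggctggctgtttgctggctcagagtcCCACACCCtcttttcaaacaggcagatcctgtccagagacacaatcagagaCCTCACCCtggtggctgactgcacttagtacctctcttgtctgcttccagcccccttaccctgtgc
Slc5a1 (chr5:33103969-33104218, plus strand): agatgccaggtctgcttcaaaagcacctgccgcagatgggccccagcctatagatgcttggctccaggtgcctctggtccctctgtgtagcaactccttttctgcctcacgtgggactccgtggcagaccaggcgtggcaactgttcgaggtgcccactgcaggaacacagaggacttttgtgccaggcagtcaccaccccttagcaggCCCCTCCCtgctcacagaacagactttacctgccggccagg
Krt2 (chr15:101818170-101818419, minus strand): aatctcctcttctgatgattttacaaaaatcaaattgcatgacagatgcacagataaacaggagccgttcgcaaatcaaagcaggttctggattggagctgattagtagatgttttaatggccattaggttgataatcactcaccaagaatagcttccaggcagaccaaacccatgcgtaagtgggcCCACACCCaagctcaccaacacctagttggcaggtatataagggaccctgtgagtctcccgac
The Klk10 promoter holds 5 matches, 2 on its own strand and 3 on the other, and lies wholly within the peak. Ano7 has 2 matches, Slc5a1 1 and Krt2 1. Of the 10 called genes with an entry, 6 had a match, and Mgst2, Krt36, Serpina3b and 4631405J19Rik had none. Such a match is found in 45.9% of 32851 promoters in the table and in 78.7% of the 2587 that overlap a KLF5 peak. A match describes letters, not a site or a cause.

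The series also holds a set of unsorted epidermis with HFD in its titles, letters that the labels leave unexplained, and 2 libraries of each genotype. Its tissue was not sorted and was prepared with another protocol and kit, and these cannot be told apart from the set itself. In 1 edgeR fit of all 10 libraries, 9 of the 13 called genes had a genotype effect that differed between the sets (adjusted p under 0.05), against 2534 of 17260 genes tested. The 13 were chosen by their E17.5 effect in libraries that also enter this contrast, so these shares are not comparable. At E17.5 itself, 3 of the 13 passed in that fit. Serpina3b rose in both sets, by 1.39 in the HFD libraries in that fit (edgeR adjusted p = 0.00221), and the difference was -0.13 (edgeR adjusted p = 0.809). Slc5a1, Ano7, Fam25c and 4631405J19Rik fell at E17.5 and rose in the HFD set, by 1.30, 0.63, 0.75 and 1.52 on the log2 scale (edgeR adjusted p = 0.0267, 0.043, 0.0144 and 0.0344). In raw counts, not scaled for library size, the second HFD Klf5-/- library was the highest in each. Slc5a1 had 286 and 467 in HFD Klf5+/- against 426 and 1391 in HFD Klf5-/-. Ano7 had 340 and 304 against 317 and 614, and 4631405J19Rik 84 and 106 against 94 and 446. Fam25c had 41146 and 33519 against 48360 and 65817. The HFD genotypes also differed in fibroblast genes. Col3a1 had 314353 and 345904 raw counts in HFD Klf5+/- against 60132 and 9368 in HFD Klf5-/-, and Col6a1 fell by 2.39 (edgeR adjusted p = 0.00646). Krt1 and Krt10 rose there by 1.33 and 1.17 (edgeR adjusted p = 0.00544 and 0.00597). The part of tissue content in the HFD values was not tested. Krt2, Nat8l and Cyp2s1 had differences of -0.64, -0.11 and 1.25 that did not pass (edgeR adjusted p = 0.714, 0.903 and 0.0531).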

How the data were processed

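For each library the authors deposited a file of raw counts by Ensembl gene. STAR 2.6.0b, HTSeq and the mm10 genome are named in the submitters' processing notes, which leave out whether counting used strand, so reads of antisense partners may not be told apart. Reads that named no gene (13.54 to 16.85% per library) stayed out. Symbols came from the annotated count files of the HFD set. The peak lists are the authors' own, with MACS2 named in the submitters' processing notes; the deposited fold of each peak is a ratio over local background and was used only to describe peaks.

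The 6 E17.5 libraries were fitted in R 4.3.3 by edgeR 4.0.16 (filterByExpr by genotype, TMM factors, robust quasi-likelihood test, Benjamini-Hochberg over all tested genes, threshold 0.05). The standard error is the log2 fold change over the square root of F. Alternatives were DESeq2 1.42.0, limma 3.58.1, other scalings and filters, a replicate block and each library left out. A log pseudocount of 0.5 CPM was used for the components and the heat map. On simulated counts edgeR recovered 70 of 100 genes at a log2 change of 1 and 84 of 100 at 2, with 11 false calls of 165. DESeq2 recovered 72 and 87 of 100, with 31 false calls of 190, a larger share. The simulated counts were drawn independently for each gene, without a shift of a whole library. These rates may therefore not hold for the real libraries. No pair of libraries agreed within sampling noise. The difference between the sets was a contrast in 1 fit of 10 libraries.

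The rule for named genes took Klf5, every called gene, the next 20 by p, and up to 4 members with the smallest p and 2 with the highest level in each of 50 lists. Some named genes are not reported here. Members, lists and rule were chosen with earlier results of these data known. Other chromatin and HaCaT files were not used here.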

Additional observations from a re-analysis of the deposited data

Results flagged for a closer look

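For 9 of the 13 genes called at E17.5 the genotype effect differed between the sorted E17.5 set and the unsorted HFD set, by the contrast in 1 edgeR fit of all 10 libraries. The 13 were chosen by their E17.5 effect in libraries that also enter this contrast, and this choice favours a high share of differences. The difference (HFD minus E17.5, log2) was positive for 7 genes that fell at E17.5: Slc5a1 (2.425, SE 0.46, edgeR adjusted p = 0.00855), 4631405J19Rik (2.244, SE 0.54, edgeR adjusted p = 0.0235), Fam25c (1.828, SE 0.23, edgeR adjusted p = 0.00267), Ano7 (1.693, SE 0.25, edgeR adjusted p = 0.00354), Mgst2 (1.526, SE 0.25, edgeR adjusted p = 0.005), Atp13a4 (1.4, SE 0.28, edgeR adjusted p = 0.00974) and Slco3a1 (0.7858, SE 0.24, edgeR adjusted p = 0.0496). It was negative for the keratin Krt36 (-8.863, edgeR adjusted p = 0.00267) and for Bst1 (-6.345, SE 1.01, edgeR adjusted p = 0.00413), which rose at E17.5 from 1 and 14 counts in the Klf5+/- libraries, so their sizes depend on few counts. The HFD genotypes also differed in the fibroblast gene Col6a1 (-2.39, edgeR adjusted p = 0.00646), and the part of tissue content was not tested. The HFD tissue was unsorted and prepared by another protocol and kit, which cannot be told apart from the set itself. Single libraries decided some of these differences over 13 alternatives of that fit. The Slco3a1 difference did not pass in 7, with edgeR adjusted p of 0.112, 0.091 and 0.0503 without E17.5 Klf5+/- libraries 1, 2 and 3 in turn, 0.129 and 0.109 without the first and second E17.5 Klf5-/- library, 0.175 without the first HFD Klf5+/- library and 0.134 without the second HFD Klf5-/- library. The 4631405J19Rik difference did not pass in 4, with edgeR adjusted p of 0.0697 without a filter on low counts, 0.0581 without the first E17.5 Klf5-/- library, and 0.0963 and 0.0647 without the first and second HFD Klf5+/- library. The Cyp2s1 difference did not pass in the 10-library fit but did in 3 alternatives (0.0292 without the filter, 0.0393 with the replicate block within each set, 6.57e-04 without the first HFD Klf5-/- library), and that of Nat8l did in 1 (0.0168 without the second HFD Klf5-/- library).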

How the results depend on the processing

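The count of 13 changed genes was 13 with DESeq2's kind of size factors in edgeR. DESeq2 gave 447, no filter on low counts 237, library totals 6, 1 fit over both sets 3 and a floor of 1 CPM on the mean 2. limma-voom gave 0 (1530 at an unadjusted p under 0.05, lowest adjusted p 0.0585) and 926 with sample quality weights. Leaving out 1 library gave from 0 to 513. With the replicate block it was 42, all 13 among them. The deviations of same-numbered libraries correlated at 0.026, -0.102 and 0.176. The libraries numbered 3 of both genotypes lay lowest on the second component. Their mean squared difference over genes, in units of counting error, was 21.6. From the first and second library of its own label, the third Klf5-/- library differed by 39.2 and 71.4. For the third Klf5+/- library these values were 62.1 and 32.5. The libraries numbered 1 and those numbered 2 differed by more between genotypes, at 63.4 and 104. Whether the numbers pair the libraries was not settled. The number of called genes whose effect differed from the HFD set was 9, and 7 to 10 under its alternatives, the replicate block within each set giving 10. Values near 0 changed sign: with 1 library left out, Klf5 ranged from -0.0552 to 0.0881, Itga6 from -0.0909 to 0.0832 and Ptprc from -0.177 to 0.385 (log2), and Itga6 was 0.0426 on library totals and 0.0350 with quality weights. Library totals moved the median of all tested genes from 0.01 to 0.08. The medians of the spinous, acylceramide, protease, Skint, retinoid, glucose, desmosome, keratin and cell cycle lists kept their sign in every setting tried. Genes under 1 CPM rest on few counts.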

Other observations

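Several genes, all but Krt7 outside the lists and picked out after their values were seen, were higher in the first and second Klf5-/- libraries and less so in the third. They include the uroplakins, membrane plaque proteins known from the bladder lining. Upk1b had 0.453, 0.781 and 1.23 CPM in the Klf5+/- libraries and 9.84, 21.3 and 2.35 CPM in the Klf5-/- libraries, and Upk3bl had 0.518, 1.77 and 1.45 against 8.56, 16.8 and 4.27 CPM. Psca, a surface antigen of mucosal epithelia, had 1.77, 3.64 and 4.89 against 27.9, 56.2 and 7.82 CPM, and the simple-epithelium keratin Krt7 had 12.4, 21.1 and 21.4 against 75.5, 132 and 31.8 CPM. Dynap had 0.0863, 0.150 and 0.123 against 8.50, 16.3 and 1.01 CPM. The genotypes did not overlap in any of these 5 genes. None passed edgeR (adjusted p from 0.137 to 0.331) and DESeq2 called all 5. In each the second Klf5-/- library was highest, the same library in which the adipocyte marker sum stood out, and whether these are related was not tested.

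Among all tested genes 500 had an absolute log2 fold change of at least 1, and most did not pass. Gm4149 had 109.5, 2.49 and 137 CPM in the Klf5+/- libraries and 2.53, 2.43 and 3.20 CPM in the Klf5-/- libraries, so the second Klf5+/- library stood with the Klf5-/- libraries (edgeR adjusted p = 0.433, DESeq2 adjusted p = 0.00552).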
